A study of Mus musculus with 5 samples.

Results

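Parental cells of the mouse neuroblastoma line Neuro2A were compared with 4 stable lines made from the same cells, each carrying a vector. The members are all 5 arrays of the series, 1 per line, chosen by their labels: the parental line (N2A, no vector) stands against a line with an empty vector, a line with a vector for knock down of EGFP, and 2 lines (KDM7 KD1 and KDM7 KD2) with different vectors for knock down of KDM7. The study was designed to examine KDM7, a histone demethylase encoded by Kdm7a, and all lines share the Neuro2A background and standard culture. The 4 stable lines thus share transfection and outgrowth as a line, while 2 of them also have the knock down. The sources used here do not name the vector, its promoter or selection, the passage number, or whether a stable line is 1 clone. Of 45037 probe sets that are not controls, 22519 with a mean log2 signal at or above the median (a signal of 40.5) were compared. The change is coded on the log2 scale as parental minus the mean of the stable lines, so a positive value is a higher level in parental cells. The spread comes from the 4 stable lines alone, and the single parental array is assumed to vary like them. The parental line and its array cannot be told apart, and p-values measure only the spread between these arrays.

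Neuro2A cells come from the sympathetic neuron lineage of the neural crest, divide as round or short-branched cells, and extend neurites when induced to differentiate. Their actin cytoskeleton is partly controlled by serum response factor (SRF), which binds the CArG box in promoters of contractile and cytoskeletal genes, together with the MRTF coactivators that free actin monomers hold back. Alpha smooth muscle actin, gamma smooth muscle actin and regulatory myosin light chains are known as targets of this pathway in muscle and in cells that spread and contract. X-linked genes are transcribed from a single active X chromosome in normal cells, since Xist RNA silences any further copy, so that their summed level follows the number of active copies.

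The promoters below are shown because smooth muscle and SRF target genes made up the gene list with the largest median change, and these 4 members hold a CArG box in the window of 250 bases before to 50 bases after the annotated start. The sequences come from RefSeq with assembly GRCm38.p6, are written 5' to 3' on the gene's strand, and have the CArG box in capitals. The windows are chr2:156775214-156775513 on the + strand for Myl9, chr10:79988350-79988649 on the + strand for Cnn2, chr14:20929148-20929447 on the + strand for Vcl, and chr17:46556113-46556412 on the - strand for Srf.
Myl9: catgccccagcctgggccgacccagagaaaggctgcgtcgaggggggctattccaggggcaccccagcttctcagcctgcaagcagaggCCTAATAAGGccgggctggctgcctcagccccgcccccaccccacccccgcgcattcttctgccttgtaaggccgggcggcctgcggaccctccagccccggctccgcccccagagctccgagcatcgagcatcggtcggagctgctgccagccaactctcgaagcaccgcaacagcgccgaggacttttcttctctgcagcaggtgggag
Cnn2: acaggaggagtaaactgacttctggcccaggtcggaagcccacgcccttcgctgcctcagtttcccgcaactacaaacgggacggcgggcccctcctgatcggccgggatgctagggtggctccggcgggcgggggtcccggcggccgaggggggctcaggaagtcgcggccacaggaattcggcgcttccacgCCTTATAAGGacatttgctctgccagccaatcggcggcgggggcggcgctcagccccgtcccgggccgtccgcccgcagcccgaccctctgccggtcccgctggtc
Vcl: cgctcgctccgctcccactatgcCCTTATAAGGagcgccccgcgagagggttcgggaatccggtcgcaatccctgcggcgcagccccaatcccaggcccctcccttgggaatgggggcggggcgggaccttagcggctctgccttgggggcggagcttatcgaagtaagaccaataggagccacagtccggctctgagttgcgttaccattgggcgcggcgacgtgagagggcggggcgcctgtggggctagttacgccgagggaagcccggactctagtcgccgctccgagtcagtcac
Srf: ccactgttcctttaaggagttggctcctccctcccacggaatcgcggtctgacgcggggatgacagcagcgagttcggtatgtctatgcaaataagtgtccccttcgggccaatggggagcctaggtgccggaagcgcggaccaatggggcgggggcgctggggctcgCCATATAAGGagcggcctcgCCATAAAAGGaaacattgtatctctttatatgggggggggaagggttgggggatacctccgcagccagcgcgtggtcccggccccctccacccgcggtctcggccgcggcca
The box begins at position -161 from the start in Myl9, at -56 in Cnn2 and at -227 in Vcl, and Srf has boxes at -82 and -62. Of 19 measured members of the list with a promoter window, 5 had a CArG box on either strand, the fifth being Filip1l at -62, against 488 of 27025 genes (1.81%) with windows of this length. The list was made of contractile genes and SRF targets, and SRF binds this box. A larger share than over all genes is therefore built into the list and is not a result of these arrays. Only the exact form CCWWWWWWGG, where W is A or T, was searched, so boxes with another letter in the core were not found. A match is a description of these letters and not evidence of binding.

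The parental array lay farther from every stable line than the stable lines lay from each other. The median absolute log2 difference between the parental array and a stable line was 0.278 to 0.291, and 0.165 to 0.237 between stable lines, with the smallest between the KDM7 knock down lines. Between 7.17% and 8.71% of probe sets differed at least 2-fold between the parental and a stable array, against 3.08% to 4.76% between stable arrays. All arrays had been scaled to the same 2% trimmed mean of 500.0, and the ratio of 3' to 5' control signal on the parental array was 0.826 for Gapdh (stable lines 0.814 to 0.831) and 1.25 for Actb (1.35 to 1.43). The neuroblastoma markers as a sum did not separate the parental line from the stable lines. Their summed signal was 81829 in parental and 81274 to 88674 in stable cells, with 14 of 16 markers above the brightness filter and Nefm under it on all arrays. Single markers did differ. Of the 14, 5 lay above every stable line (35.7%, where 24.6% of all genes did) and 4 below (28.6%, where 31.1% did). Gata3 and Isl1 also differed between the stable lines and are given below. Summed signals of other marker lists were 1125 for Schwann cell and glia (stable 1223 to 1834), 2117 for fibroblast (1933 to 2415), 297 for endothelial (218 to 381), 675 for blood and immune (626 to 717), 162 for epithelial (253 to 489) and 3966 for smooth muscle (321 to 505). In a bulk sample fewer cells of a type and less RNA per cell cannot be told apart.

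In limma with Benjamini-Hochberg adjustment at 0.05, 262 probe sets passed the threshold (1.16% of those tested), 117 higher (0.520%) and 145 lower (0.644%) in parental cells. By size alone, the parental array lay at least 2-fold beyond every stable line for 485 probe sets (2.15%), 127 above (0.564%) and 358 below (1.59%). It lay outside the range of the stable lines for 12287 (54.6%), 5187 above (23.0%) and 7100 below (31.5%). With the same adjustment over all probe sets, but counting only each gene's brightest probe set over 10867 genes, 147 passed (1.35%), 71 higher (0.653%) and 76 lower (0.699%), and 2670 lay above (24.6%) and 3376 below (31.1%) every stable line. The higher and lower calls differed in brightness. The higher calls had a median signal of 2658 in parental and 1234 in stable cells, and 9 of 117 had a stable array under 40.5, while the lower calls had 71.7 and 285, with 59 of 145 under 40.5 on the parental array. The split of calls depended on scaling, with 328 higher and 102 lower after median centring, 79 and 73 after quantile normalization, 102 and 83 after cyclic loess and 97 and 53 when 32 was added to each signal. Median centring moved the median change of all probe sets from -0.05 to 0.14. The counts depended on the lines entered. Without the empty vector line 34 passed each way, without KDM7 KD1 31 higher and 29 lower, without KDM7 KD2 33 each way, and without EGFP KD 278 higher and 325 lower.

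**Figure D1:**
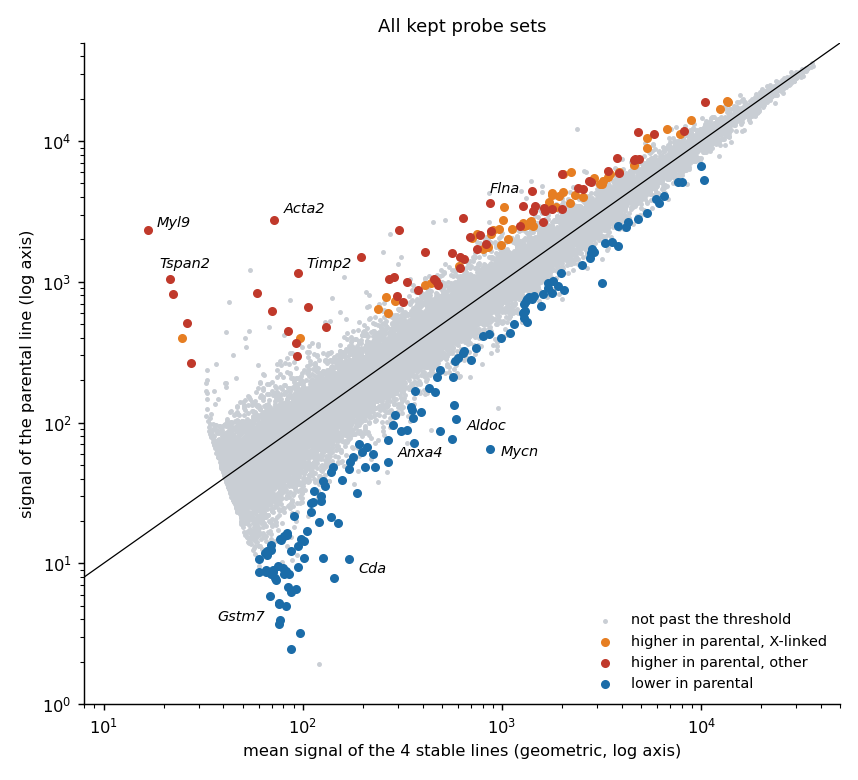
Signal of each of the 22519 kept probe sets in parental cells (vertical, log axis) against the geometric mean of the 4 stable lines (horizontal, log axis), with the line of equality and with probe sets past the threshold in limma coloured. The 117 higher calls lie mostly at high signals and many are X-linked, whereas 59 of the 145 lower calls have a parental signal under 40.5.

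Genes of the smooth muscle contractile apparatus and SRF targets were higher in parental cells as a group. Of 21 measured members 17 lay above every stable line (81.0%, where 24.6% of all genes did) and 0 below every line (where 31.1% of all genes did). At least 2-fold above every line were 7 members, where 0.663% of all genes were, and 7 passed the threshold, all higher, where 0.653% of all genes did. The median change was 0.95, against -0.04 over all genes, with 1.11 against the empty vector line, 1.23 against EGFP KD, 0.80 against KDM7 KD1 and 1.05 against KDM7 KD2. The median ranged from 0.86 to 1.14 over the alternatives run and was 0.95 without Flna, the X-linked member. Myl9 and Actg2 had stable means of 16.7 and 26.2, under the filter level, and were measured only because the parental array was high. Over the 19 members whose stable mean reached the filter level by itself, 15 lay above every stable line, against 24.6% of all genes. Of these 19, 5 were at least 2-fold above every line, 5 passed, and the median change was 0.94. The list was chosen with results of these samples known, so it is not independent evidence of its direction.

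Acta2, alpha smooth muscle actin, had a signal of 2733 in parental cells and 105, 73.3, 89.6 and 39.3 in the empty vector, EGFP KD, KDM7 KD1 and KDM7 KD2 lines. The lowest ratio to any line was 26.1-fold, and the change of 5.24 (SE 0.48, adjusted p = 0.0122 in limma) passed with each stable line left out in turn. Myl9, a regulatory light chain of smooth muscle myosin, had 2327 in parental cells and 40.1, 56.9, 7.88 and 4.33 in the stable lines. All 4 stable values are dim, and with 2 of them under 10 the size of the change, 7.12 (SE 1.27, adjusted p = 0.0480 in limma), is uncertain. It was 5.42 when 32 was added to each signal, an offset that damps dim values. Actg2, gamma smooth muscle actin, had 508 in parental cells and 30.2, 55.1, 12.8 and 22.3 in the stable lines (change 4.28, SE 0.71, adjusted p = 0.0420 in limma; 3.17 with the offset). The parental value was above all stable lines for each of these 3 genes, which for Myl9 and Actg2 follows from the filter they passed. Without the empty vector line the adjusted p in limma was 0.0639 for Myl9 and 0.0687 for Actg2, without KDM7 KD1 it was 0.0903 for Myl9, and without KDM7 KD2 it was 0.0746 for Actg2.

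Brighter cytoskeletal members moved by smaller factors. Flna, filamin A, an X-linked actin crosslinker, had 3392 in parental cells and 817, 1075, 1154 and 1093 in the stable lines (change 1.73, SE 0.21, adjusted p = 0.0187 in limma), and passed with each line left out. Pdlim7, a PDZ and LIM domain protein of actin bundles, had 3483 against 1180, 1338, 1141 and 1493 (1.44, SE 0.18, adjusted p = 0.0190 in limma) and likewise passed with each line left out. Csrp1, a LIM protein of smooth muscle, had 3464 against 1891, 1222, 1321 and 1475 (1.25, SE 0.23, adjusted p = 0.0481). Its other called probe set had 2310 against 1023, 886, 838 and 809 (1.38, SE 0.18, adjusted p = 0.0204 in limma). Tpm1, a tropomyosin, had 1853 against 937, 791, 879.7 and 739 (1.15, SE 0.18, adjusted p = 0.0395) and, by its other called probe set, 1597 against 493, 570.1, 673 and 526 (1.51, SE 0.21, adjusted p = 0.0250 in limma). The 4 genes were given because they were called higher. The parental value lay above all stable lines in each, as it did for 24.6% of all genes. Without the empty vector line the adjusted p in limma was 0.0552 for the first Tpm1 probe set and 0.0541 for the other. Without KDM7 KD1 it was 0.0880 for the first Tpm1 probe set and 0.103 and 0.0552 for those of Csrp1, and without KDM7 KD2 0.0742 and 0.0545 for Tpm1 and 0.0934 for the first of Csrp1. Pdlim7, Csrp1 and Tpm1 and the members in the next paragraph were chosen after their values were seen.

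Other members lay above every stable line without passing the threshold. Srf itself had 985 in parental cells and 457, 546, 569 and 476 in the stable lines (change 0.95, SE 0.20, adjusted p = 0.0622 in limma), and 0.35 by its other probe set. Cnn2, calponin 2, had 5213 against 705, 2384, 1818 and 1257 (1.90, SE 0.52, adjusted p = 0.124 in limma), and Vcl, vinculin, had 4544 against 2014, 2912, 2615 and 2392 (0.88, SE 0.19, adjusted p = 0.0681). Myl9, Cnn2, Vcl and Srf, whose promoter windows with a CArG box are printed above, had changes of 7.12, 1.90, 0.88 and 0.95. No box of the exact form searched was found for Acta2, which had a larger change than Cnn2. Boxes with another letter in the core were not searched, so Acta2 may still have one. Mrtfa (0.01) and Mrtfb (-0.04), the coactivators of SRF, lay within the range of the stable lines. The smooth muscle markers Myh11, Tagln, Cnn1, Lmod1 and Myocd lay under the filter level on all 5 arrays, and most of the summed smooth muscle signal of 3966 in parental cells was that of Acta2. Of the 5 smooth muscle markers measured, Acta2, Actg2 and Synpo2 (change 2.83, not past the threshold) lay above every stable line. Des (115 against 59.4 to 146, change 0.40) and Smtn (97.4 against 34.2 to 105, change 0.53) lay within the range of the stable lines.

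**Figure D2:**
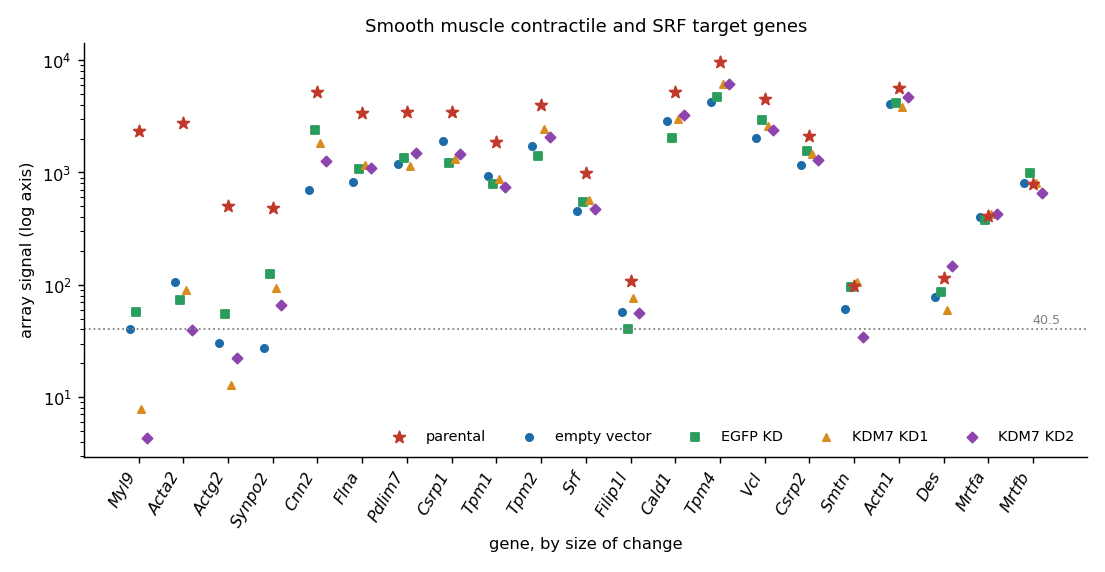
Array signal (vertical, log axis) of the 21 measured smooth muscle contractile and SRF target genes in the parental line (stars) and the 4 stable lines, ordered by change, with the filter level of 40.5 dotted. The star stands above all 4 stable lines for 17 genes, and Acta2 has 2733 in parental cells against at most 105 in a stable line.

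Among the other genes higher in parental cells was Tspan2, a tetraspanin of the cell membrane. Its signal was 1048 in parental cells and at most 29.7, in the empty vector line, among the stable lines (change 5.60, SE 0.49, adjusted p = 0.0109 in limma; 4.32 with the offset). All its stable signals were under 40.5, so it passed the filter through the parental array and the size of its change is uncertain. The changes by its further kept probe sets were 5.18 and 3.05. Timp2, an inhibitor of matrix metalloproteinases, had 1146 against 113, 92.1, 72.0 and 105 (3.60, SE 0.31, adjusted p = 0.0109 in limma). S100a6, a calcium-binding protein, had 3608 against 1089, 743, 779.6 and 923 (2.05, SE 0.22, adjusted p = 0.0176 in limma). Tspan2, Timp2 and S100a6 were thus lower in all 4 stable lines alike, and passed with each line left out. For Tspan2 the higher parental value follows from the filter it passed.

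Emp1, an epithelial membrane protein, had 2343 in parental cells and 200.3, 206, 401 and 513 in the stable lines (change 2.95, SE 0.49, adjusted p = 0.0418 in limma). Pdlim3, a PDZ and LIM domain protein that binds alpha-actinin, had 2824 against 467, 928, 639.8 and 595 (2.15, SE 0.31, adjusted p = 0.0307 in limma). Dok4, a docking protein of receptor tyrosine kinases, had 1052 against 222, 270.4, 315 and 283 (1.96, SE 0.24, adjusted p = 0.0187 in limma). The remaining genes named by size of gap were Glipr1 (3.83), Magea5 (3.99), Shisa3 (2.40), Nxt2 (2.03), Lsp1 (2.00) and Ppp1r14c (1.91). Glipr1 had 833 in parental cells and 34.8 to 92.2 in the stable lines by this probe set, but 264 in parental cells and 215 to 298 by another, so its probe sets disagree. Of the 15 genes, 8 passed with each stable line left out, while Emp1, for example, had an adjusted p in limma of 0.0633 without the empty vector line and 0.0658 without KDM7 KD1, and Pdlim3 had 0.0658 without KDM7 KD1 and 0.0583 without KDM7 KD2. Ppp1r14c had 0.0696 and 0.0742 without those lines, Nxt2 had 0.0538 without KDM7 KD1, and Lsp1 had 0.0590, 0.0921 and 0.0934 without the empty vector, KDM7 KD1 and KDM7 KD2 lines.

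Bright probe sets, those with a signal of at least 100 on every array, gave 102 higher calls in 76 genes. Over all kept probe sets 117 were called higher (0.520%). The probe sets tested at this brightness were not counted, so the share called among them is not given. Of these 102 probe sets, 53 were X-linked, some of them for the same gene, where 2.83% of the genes measured were X-linked. Scn3b, a beta subunit of voltage-gated sodium channels, had 992 in parental cells and 355, 305, 358 and 324 in the stable lines (change 1.57, SE 0.20, adjusted p = 0.0190 in limma). Nme1, a nucleoside diphosphate kinase, had 5823 against 2171, 1644, 2134 and 2109 (1.54, SE 0.17, adjusted p = 0.0185 in limma). Both genes passed with each stable line left out. Cfl2, the muscle form of the actin-severing protein cofilin, had 1461 against 670.5, 650.3, 651 and 615 (1.18, adjusted p = 0.0252 in limma), but an adjusted p of 0.0541 without the empty vector line, 0.0752 without KDM7 KD1 and 0.0598 without KDM7 KD2. These 3 genes were chosen after their values were seen.

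X-linked genes were higher in parental cells almost throughout, a grouping that was chosen after the values were seen. Of 307 measured X-linked genes, placed by a gene table of GRCm38.p6, 42 passed the threshold as higher in parental cells (13.7%) and 1, Rab33a, as lower. Of 10524 autosomal genes, 29 passed as higher (0.276%) and 75 as lower. X-linked genes made up 2.83% of the genes measured and 59.2% of those called higher. The median X-linked change was 0.58, or 1.49-fold, against -0.05 for autosomal genes, and 237 of 307 X-linked genes lay above all 4 stable lines (77.2%, where 24.6% of all genes did) and 14 below.

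The shift was alike against every stable line. The median X-linked difference of the parental array was 0.55 from the empty vector line, 0.56 from EGFP KD, 0.62 from KDM7 KD1 and 0.59 from KDM7 KD2, whereas the medians between pairs of stable lines lay within 0.03 of 0. Among 106 X-linked genes with a mean stable signal over 1000, the median was 0.56. The middle 50% of X-linked genes had changes from 0.28 to 0.82, and 273 of 307 were positive. The median kept its sign under every alternative run, from 0.54 to 0.77, but the number of X-linked calls did not keep its size. It was 12 without the empty vector line, 8 without KDM7 KD1, 10 without KDM7 KD2 and 73 without EGFP KD.

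Along the chromosome the shift was spread over the whole length. With the 307 genes ranked by position and split into 10 segments of 30 or 31 genes, the median change was positive in each, from 0.36 in the segment from Hdac8 to Gla to 0.74 in the segment from Prdx4 to Erdr1. The last 3 segments had 0.71, 0.70 and 0.74, and the first had 0.41.

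**Figure D3:**
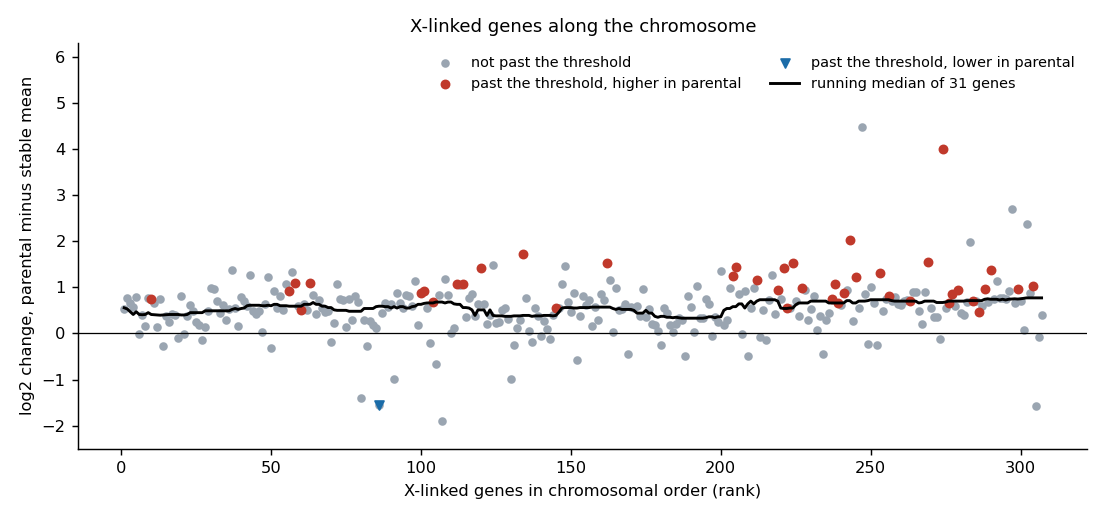
Change of each of the 307 measured X-linked genes (vertical, log2, parental minus the mean of the stable lines) by rank along the chromosome, with a running median over 31 genes. The running median stays above 0 along the whole chromosome, and the 42 genes higher at the threshold are spread along it.

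Single X-linked genes are given here and in the next paragraph, of which all but Magea5 and Rbbp7 were chosen after their values were seen. Magea5, of the MAGE family of cancer-testis antigens, had 396 in parental cells and 23.7, 19.5, 26.7 and 30.9 in the stable lines (change 3.99, SE 0.47, adjusted p = 0.0187 in limma; 2.91 with the offset). Its stable signals were all under 40.5, so that it passed the filter through the parental array and the size is uncertain. Mageh1, of the same family, had 2062 against 696, 671, 764 and 699 (1.54, SE 0.16, adjusted p = 0.0170 in limma). Rps6ka6, a ribosomal S6 kinase, had 2736 against 1093, 1069, 1042 and 849 (1.44, SE 0.18, adjusted p = 0.0190 in limma), and Bhlhb9 had 5982 against 2451, 2425, 1932 and 2147 (1.42, SE 0.16, adjusted p = 0.0176). These 4 genes passed with each stable line left out. The parental value lay above all stable lines in each, which for Magea5 follows from the filter it passed.

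Pdha1, a subunit of pyruvate dehydrogenase, had 5546 in parental cells and 3360, 3339, 3506 and 3437 in the stable lines (change 0.70, SE 0.11, adjusted p = 0.0388 in limma). Smc1a, a cohesin subunit, had 5235 against 3140, 3202, 3351 and 3173 (0.70, SE 0.11, adjusted p = 0.0398 in limma), and Rbbp7, a histone-binding protein of several chromatin complexes, had 18875 against 13672, 14050, 13377 and 13495 (0.47, SE 0.08, adjusted p = 0.0398). The parental values lay above narrow ranges of the stable lines in all 3. Their calls did not hold without the empty vector line (adjusted p in limma 0.0557, 0.0583 and 0.0521), without KDM7 KD1 (0.0921, 0.0921 and 0.106) or without KDM7 KD2 (0.0839, 0.0887 and 0.0982). Rab33a, a small GTPase and the X-linked gene called lower, had 96.8 in parental cells and 230.0, 359, 255 and 315 in the stable lines (change -1.56, SE 0.29, adjusted p = 0.0484 in limma), with adjusted p of 0.0590, 0.0979 and 0.103 without the empty vector, KDM7 KD1 and KDM7 KD2 lines.

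Xist, the RNA that silences an X chromosome, had lower values in parental cells, unlike most genes of the chromosome it lies on. By its brightest probe set it had 2947 in parental cells and 3461, 4501, 4282 and 4551 in the stable lines, and by the other kept ones 914 against 1305, 1742, 1536 and 1508, and 706 against 902, 1414, 1140 and 1252. All 3 probe sets were thus lowest in parental cells, and none passed the threshold. All 9 probe sets of Y-linked genes lay under the filter, at most 16.9 in parental and 33.1 in stable cells.

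Other chromosomes showed smaller shifts. The 607 genes of chromosome 9 had a median change of 0.20 (0.17, 0.19, 0.22 and 0.19 against the 4 lines), with 307 above every stable line (50.6%, where 24.6% of all genes were) and 70 below (11.5%, where 31.1% were). The 400 genes of chromosome 12 had 0.19 (0.17, 0.18, 0.25 and 0.18), with 204 above (51.0%) and 49 below (12.2%), beside the same shares over all genes. Over the alternatives the medians were 0.18 to 0.39 for chromosome 9 and 0.16 to 0.38 for chromosome 12, where the higher ends are median centring. By each gene's brightest probe set, calls on these chromosomes were few, with 6 higher and 2 lower on chromosome 9 and 0 and 2 on chromosome 12.

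On some chromosomes a single stable line stood apart. Chromosome 5 had a median of 0.30 against the empty vector line, but 0.06, 0.10 and 0.08 against EGFP KD, KDM7 KD1 and KDM7 KD2. Chromosome 3 had 0.08 against EGFP KD and -0.23, -0.21 and -0.21 against the others. Chromosome 11 had the largest number of genes called lower, 20 of 934 (where 0.699% of all genes were), with a median of -0.13 and 413 below every stable line (44.2%, where 31.1% of all genes were), and the median was 0.06 after median centring.

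**Figure D4:**
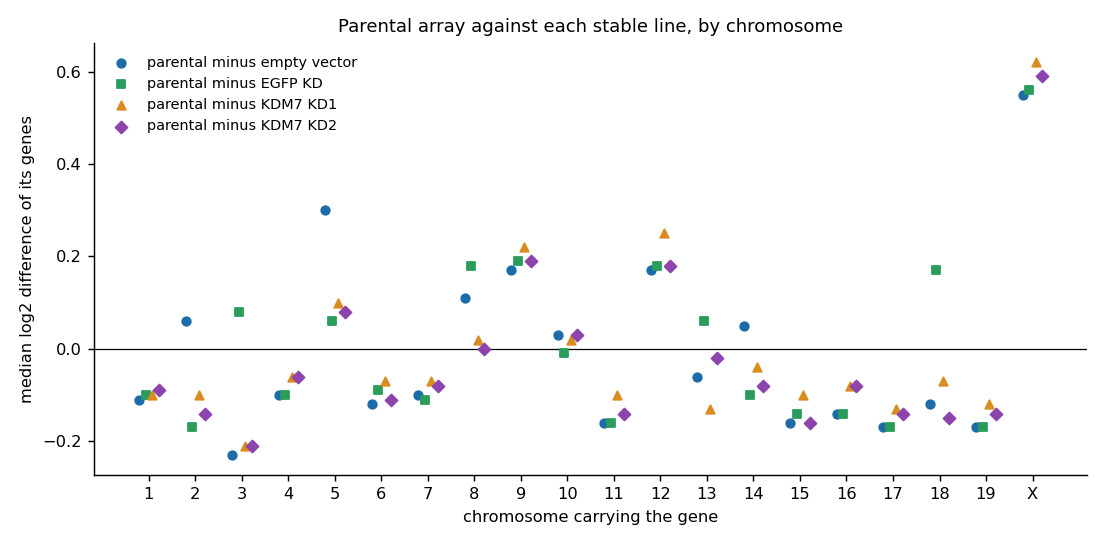
Median log2 difference of the parental array from each stable line (4 markers) over the genes of each chromosome. The X chromosome stands at 0.55 to 0.62 against all 4 lines, chromosomes 9 and 12 at 0.17 to 0.25, and the markers of chromosome 3 and chromosome 5 split by line.

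The genes lowest in parental cells were mostly seen through dim probe sets. Of the 15 named by the gap to the nearest line, 14 had a parental signal under 40.5, and 11 had other kept probe sets. These all shared the sign in 8 genes and were all at least 2-fold in 2. The 8 include Gstm7 and Aqp11, whose other probe sets had changes of only -0.02 and -0.04. Tcn2, a carrier of vitamin B12, was lower by all 5 of its probe sets. The named probe set had 3.22 in parental cells and 47.9, 78.0, 189.9 and 124 in the stable lines (change -4.91, SE 0.70, adjusted p = 0.0271 in limma), and the brightest had 397 against 813, 862, 1223 and 1108 (-1.31, SE 0.25, adjusted p = 0.0494). By both, the parental value lay below every stable line, as it did for 31.5% of all probe sets, but the size differed between them by over 3 log2 units. Without KDM7 KD2 the adjusted p in limma was 0.0583 and 0.101, and the brightest had 0.0622 without the empty vector line and did not pass without KDM7 KD1 either.

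Cda, cytidine deaminase, which recycles pyrimidine nucleosides, had 10.8 in parental cells and 135, 185, 171 and 202 in the stable lines (change -3.99, SE 0.34, adjusted p = 0.0109 in limma). Its change was -2.25 with the offset of 32, and it passed with each line left out. Gstm7, a glutathione transferase, had 3.69 against 71.8, 88.0, 79.2 and 66.2 (-4.36, SE 0.45, adjusted p = 0.0170 in limma), or -1.60 with the offset, while its other probe set had 48.2 against 24.9 to 100.0 (-0.02). Ergic1, a protein of the compartment between endoplasmic reticulum and Golgi, had -3.82 by the named probe set, and 0.14, 0.27 and 0.27 by 3 brighter ones. Stox2 had -3.63, and its other 5 probe sets -0.43 to 0.08. Aqp11 had -2.85 by the named probe set and -0.04 by its other. The single low probe sets of Gstm7, Ergic1, Stox2 and Aqp11 therefore do not stand for the gene. The other genes named this way, P2rx3, P2rx1, Sgsm1, Rhov, Cxadr, Kcnq1ot1, Aqp11, Cbs and Abca2, had changes of -4.27 to -2.84, and of -1.65 to -1.25 with the offset. Further probe sets gave smaller changes, -0.71 and -1.10 for P2rx3, -0.86 and -0.71 for Sgsm1 and -0.55 for Cbs. They gave -0.72 and -1.82 for Cxadr and -1.58 and -1.40 for Kcnq1ot1. The size is therefore uncertain for these genes too, and P2rx1, Rhov and Abca2 had no further kept probe set. Of the 15 genes, 6 passed with each stable line left out. Rhov, Cxadr, Kcnq1ot1, Aqp11 and Abca2 had an adjusted p in limma of 0.0541 to 0.0639 without the empty vector line, 0.0649 to 0.0918 without KDM7 KD1 and 0.0562 to 0.0839 without KDM7 KD2. P2rx1 had 0.0552 without the empty vector line, Cbs had 0.0639 without it and 0.0769 without KDM7 KD1, and Sgsm1 had 0.0722 without KDM7 KD1 and 0.0620 without KDM7 KD2.

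Mycn, the MYC family oncogene of neuroblastoma, was the exception in signal among these 15, and its probe sets disagreed. By the probe set named it had 65.3 in parental cells and 991, 1413, 587 and 687 in the stable lines (change -3.73, SE 0.41, adjusted p = 0.0176 in limma; -3.21 with the offset), and passed with each line left out. By its brightest alternative it had 1068 against 723, 838, 632 and 740.2 (0.55, SE 0.19, adjusted p = 0.202 in limma), and by the remaining probe set 150.2 against 101, 62.2, 49.1 and 108 (0.98, SE 0.48). The parental array was therefore far below the stable lines by the first and above all of them by the others, and no direction is given for the gene.

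Lower calls on bright probe sets numbered 66 in 56 genes. Over all kept probe sets 145 were called lower (0.644%), and the share called among bright ones is not given. Those described here were chosen after their values were seen, apart from Aldoc and Anxa4. Aldoc, aldolase C, a glycolytic enzyme of brain, had 106 in parental cells and 476, 525, 736 and 649 in the stable lines (change -2.47, SE 0.26, adjusted p = 0.0170 in limma). Anxa4, a membrane-binding annexin, had 133 against 432, 643, 679.6 and 581 (-2.11, SE 0.27, adjusted p = 0.0190 in limma), and -2.87 and -2.55 by its other called probe sets. Tlcd1, a membrane protein with a TLC domain, had 434 against 1101, 1133, 1070 and 1090 (-1.34, SE 0.16, adjusted p = 0.0187 in limma). Aldoc, Anxa4 and Tlcd1 passed with each stable line left out.

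Bhlhe40, a transcription factor of the circadian clock and of hypoxia, had 279 in parental cells and 700.0, 685, 684 and 731 in the stable lines (change -1.33, SE 0.17, adjusted p = 0.0210 in limma). Igf1r, the receptor of insulin-like growth factor 1, had 557 against 1319, 1386, 1252 and 1210 (-1.21, SE 0.16, adjusted p = 0.0211 in limma). Nos1, neuronal nitric oxide synthase, had 118 against 562, 365, 353 and 323 (-1.73, SE 0.31, adjusted p = 0.0480 in limma). The stable lines lay close together for Bhlhe40 and Igf1r and wider apart for Nos1. The adjusted p in limma without the empty vector line was 0.0521, 0.0541 and 0.0524 for these 3 genes, without KDM7 KD1 0.0630, 0.0630 and 0.0921, and without KDM7 KD2 0.0542, 0.0435 and 0.0742.

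Kdm7a, the gene targeted in 2 of the stable lines, had 659.5 in parental cells by its brightest probe set and 648, 872, 231 and 143 in the empty vector, EGFP KD, KDM7 KD1 and KDM7 KD2 lines. By its next brightest probe set it had 487 against 611, 665, 130.3 and 136. Parental cells therefore stood with the vector controls and above both knock down lines, and against all 4 lines the changes of 0.84 (SE 0.84, adjusted p = 0.668 in limma) and 0.74 (SE 0.89, adjusted p = 0.727) did not pass. Against the vector controls alone the changes were -0.19 and -0.39, so the direction depends on the lines entered. Of its paralogs, Phf8, which is X-linked, had 920.4 in parental cells and 603, 624, 565 and 584 in the stable lines (0.63, SE 0.17, adjusted p = 0.118 in limma), close to the median X-linked change of 0.58. Phf2 had 655 against 617, 423, 496 and 622 (0.30, SE 0.25, adjusted p = 0.598 in limma), but -0.84 by a dim probe set. Of 12 measured demethylases of the list of histone H3 lysine 9 and lysine 27 demethylases, 0 passed in limma. At an unadjusted p under 0.05 in limma were 4 of them, where 16.7% of all probe sets had such a p.

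Most lipid synthesis genes had lower values in parental cells, by small factors and with 0 of 16 members past the threshold in limma. At an unadjusted p under 0.05 in limma were 9 members, where 16.7% of all probe sets had such a p. Of 16 measured genes of fatty acid synthesis and desaturation, 12 lay below every stable line (75.0%, where 31.1% of all genes did) and 4 above, with a median change of -0.37 that ranged from -0.48 to -0.18 over the alternatives. Fads2, a fatty acid desaturase, had 1610 in parental cells and 2352, 2394, 2796 and 2404 in the stable lines (change -0.62, SE 0.15, adjusted p = 0.0837 in limma). Fasn, fatty acid synthase, had 5341 against 6847, 7151, 7956 and 7686 (-0.47), and Srebf1, a transcription factor that drives these genes, had 3605 against 5203, 4433, 5968 and 5933 (-0.57). Fads2, Fasn and Srebf1 thus lay below all stable lines, and the stable lines varied most for Srebf1. These 3 genes were chosen after their values were seen. Scd1 had the largest change of the list (-1.81, SE 1.25, adjusted p = 0.523 in limma), but its 25.6 in parental cells lay next to 29.7 in the empty vector line, and KDM7 KD2 alone had 542.

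Of 21 cholesterol synthesis genes 11 lay below every stable line (52.4%) and 4 above, with a median of -0.19 that was 0.00 after median centring. Tm7sf2, a sterol reductase, had 417 in parental cells and 766, 1053, 1155 and 1281 in the stable lines (change -1.32, SE 0.26, adjusted p = 0.0553 in limma), the largest change of the list. Of 24 genes of the response to unfolded proteins and amino acid shortage, 15 lay below every stable line (62.5%, against the same 31.1%) and 3 above (12.5%, against 24.6%). The median was -0.17, and 0.02 after median centring. Trib3, a pseudokinase induced by stress, had 1563 against 2523, 3200, 2569 and 2402 (-0.77, SE 0.17, adjusted p = 0.0768 in limma). The members named in both lists lay below all stable lines, and 0 members of either passed in limma. At an unadjusted p under 0.05 in limma were 8 of the first and 10 of the second, where 16.7% of all probe sets had such a p.

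Interferon and RNA sensing genes also lay lower, with 10 of 19 below every stable line (52.6%, where 31.1% of all genes did) and 2 above (10.5%, where 24.6% did). Their median was -0.29 and ranged from -0.39 to -0.10 over the alternatives. H2-D1, a classical MHC class I gene, was the member past the threshold, where 0.699% of all genes were called lower. It had 4046 in parental cells and 7271, 6106, 6118 and 6583 in the stable lines (change -0.68, SE 0.12, adjusted p = 0.0481 in limma), while the other 7 kept probe sets had negative changes, 3 of them past the threshold. Class I genes are near-identical copies, so that these values are uncertain as to the gene. H2-K1, chosen after its values were seen, had 2361 against 4645, 3383, 3775 and 3792 (-0.71). The parental values of H2-D1 and H2-K1 lay below all stable lines. The call of H2-D1 did not hold without the empty vector line (adjusted p = 0.0580 in limma), KDM7 KD1 (0.0979) or KDM7 KD2 (0.103).

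Of 24 glycolysis and hypoxia response genes 7 lay above every stable line (29.2%, against 24.6% of all genes) and 10 below (41.7%, against 31.1%), with 2 past the threshold, Aldoc (above) and Hk2, both lower, where 0.699% of all genes were. Hk2, hexokinase 2, had 2480 in parental cells and 3738, 4058, 3743 and 3790 in the stable lines (change -0.63, SE 0.12, adjusted p = 0.0484 in limma). Its parental value lay clearly below the stable range, but the adjusted p was 0.0688, 0.122 and 0.109 without the empty vector, KDM7 KD1 and KDM7 KD2 lines. Of 18 immediate early genes 4 lay above every stable line (22.2%) and 7 below (38.9%), near the same shares over all genes, with a median of -0.01. The 1 that passed, beside 0.699% of all genes called lower, was Ier3, with 868 against 2322, 1674, 2018 and 2227 (-1.24, SE 0.19, adjusted p = 0.0388 in limma). Without those same lines its adjusted p in limma was 0.0604, 0.0880 and 0.0746.

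**Figure D5:**
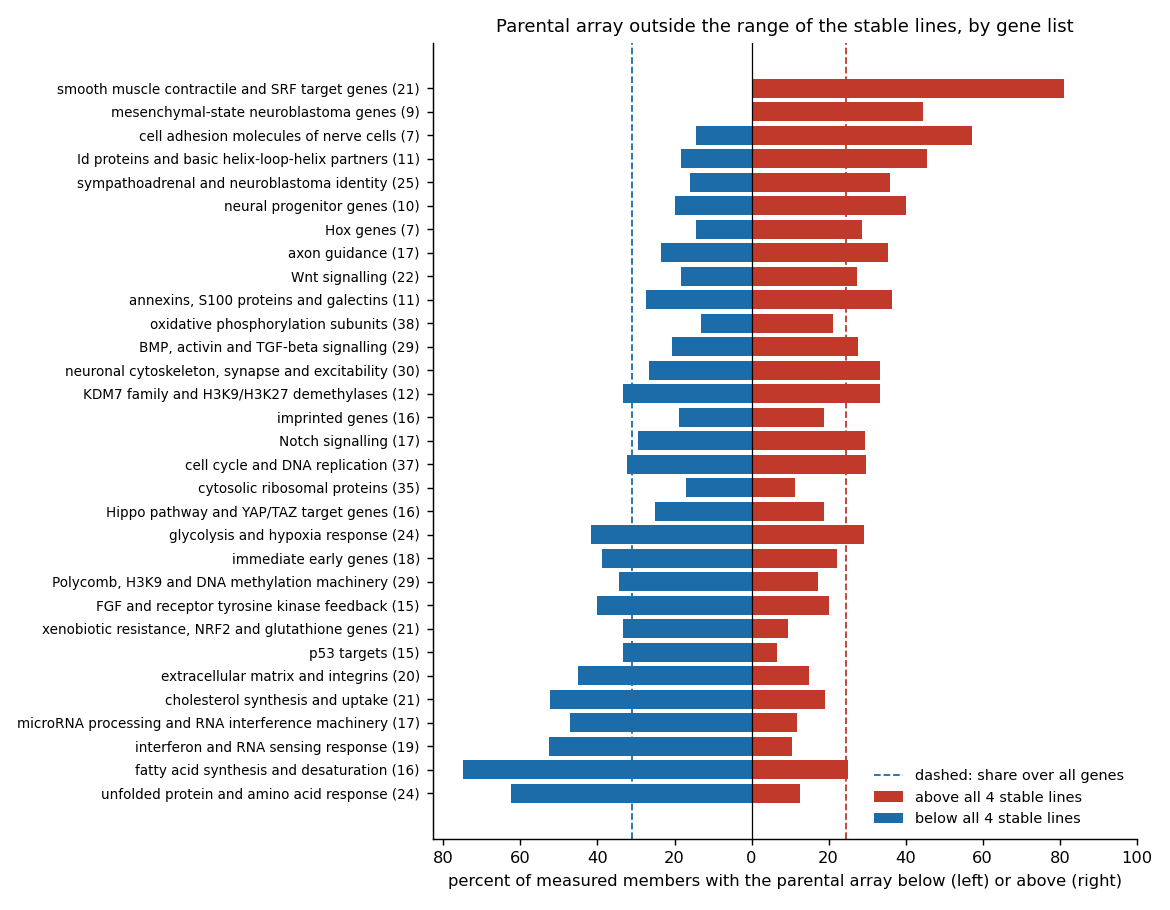
Percent of the measured members (number in brackets) of each gene list but the caveolae genes, of which 2 were measured, for which the parental array lay above (right) or below (left) all 4 stable lines, with the shares over all genes, 24.6% above and 31.1% below, dashed. Smooth muscle and SRF target genes lie above for 17 of 21 members, and genes of fatty acid synthesis below for 12 of 16.

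Matrix and surface genes moved both ways. Of 20 measured extracellular matrix and integrin genes, Timp2 was higher and Lama5 and Itga3 were lower at the threshold. Lama5, a laminin chain of basement membranes, had 21.5 in parental cells and 154, 151, 115 and 134 in the stable lines (change -2.68, SE 0.32, adjusted p = 0.0187 in limma), and passed with each line left out. Itga3, an integrin subunit that binds laminin, had 88.6 against 429, 296, 252 and 386 (-1.91, SE 0.31, adjusted p = 0.0398 in limma), with an adjusted p of 0.0595 without the empty vector line and 0.0795 without KDM7 KD2. The parental values of Lama5 and Itga3 lay below every stable line. Among annexins, S100 proteins and galectins S100a6 was called higher and Anxa4 lower, out of 11 measured, beside the same shares of calls. Of these 11, 4 lay above every stable line (36.4%) and 3 below (27.3%).

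Of 7 measured cell adhesion molecules of nerve cells 4 lay above every stable line (57.1%, against 24.6% of all genes) and 1 passed as higher (against 0.653% of all genes), with a median change of 0.56 (0.51 to 0.75 over the alternatives). Ncam1, the neural cell adhesion molecule, had 5175 in parental cells and 2930, 2916, 2404 and 2693 in the stable lines (change 0.92, SE 0.14, adjusted p = 0.0388 in limma), and 3314 against 1842, 1998, 1520 and 1773 by a further called probe set (0.90, SE 0.17, adjusted p = 0.0493). L1cam, an X-linked member chosen after its values were seen, had 5043 against 3715, 3347, 3537 and 3110 (0.56). The parental level stood above all lines in both genes. The Ncam1 call did not hold without the empty vector line (adjusted p = 0.0552 in limma), KDM7 KD1 (0.0752) or KDM7 KD2 (0.0793).

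Of 30 genes of the neuronal cytoskeleton, synapse and excitability 10 lay above every stable line (33.3%) and 8 below (26.7%), near the shares of 24.6% and 31.1% over all genes. Beside the single calls in the lists of this paragraph, 0.653% of all genes were called higher and 0.699% lower. Nefh, the heavy neurofilament subunit, was the member past the threshold, with 2459 in parental cells and 3962, 4622, 4037 and 4200 in the stable lines (change -0.77, SE 0.13, adjusted p = 0.0399 in limma), and an adjusted p of 0.0557, 0.0930 and 0.0887 without the empty vector, KDM7 KD1 and KDM7 KD2 lines. Of 29 genes of BMP, activin and TGF-beta signalling 1 passed, Tgfbr3, a coreceptor, with 10.9 against 60.4, 144, 130.1 and 90.9 (-3.21, SE 0.52, adjusted p = 0.0398 in limma; -1.65 with the offset), and an adjusted p of 0.0903 without KDM7 KD1 and 0.0742 without KDM7 KD2. Id2, also chosen after its values were seen, which blocks DNA binding by basic helix-loop-helix factors, passed by its dimmer probe set with 1625 against 578, 451, 269 and 414 (1.98, SE 0.35, adjusted p = 0.0480 in limma), but not by its brightest probe set with 4405 against 1995, 1461, 802 and 1036 (1.82, SE 0.40, adjusted p = 0.0751). By both, the empty vector and EGFP KD lines lay above both KDM7 knock down lines, and the first had an adjusted p of 0.0552 without the empty vector line and 0.0857 without KDM7 KD2.

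For several genes the parental array stood nearer to the EGFP KD line than to the other stable lines. Cavin2, a component of caveolae, had 4311 in parental cells, 3463 in EGFP KD and 477, 613 and 546 in the empty vector, KDM7 KD1 and KDM7 KD2 lines. Gata3, a transcription factor of sympathetic neurons, had 554 in parental cells, 585 in EGFP KD and 224, 178 and 95.3 in the others, and Isl1, of the same lineage, had 1493, 1998 and 545, 316 and 466. Chrna3, a nicotinic receptor subunit of autonomic ganglia, had 1501 in parental cells, 869.6 in EGFP KD and 208, 190.2 and 280.1 in the others. By its other probe set it had 2203 in parental cells, 790.2 in EGFP KD and 198, 152 and 238 in the others (change 3.01). The parental value of Chrna3 thus lay above all 4 lines by both, 1.73-fold and 2.79-fold above EGFP KD. Wwtr1 (TAZ), a coactivator of the Hippo pathway, had 313, 439 and 101, 91.2 and 87.1, while its dimmer probe sets had changes of 0.06 and -0.73. In these 5 genes the EGFP KD line was the highest stable line, and by the first probe set given 0 of them passed against all 4 lines (adjusted p = 0.151 to 0.499 in limma). Without the EGFP KD line Cavin2 passed with a change of 2.99 (adjusted p = 0.00340 in limma), Chrna3 with 2.75 (0.00791) and Wwtr1 with 1.75 (0.0313) and Isl1 with 1.79 (0.0308), while Gata3 did not (1.83, 0.0755). The 5 genes were grouped because this line stood nearest to parental cells, so these values are a description. Isl1 was chosen after its values were seen. Pax3, a factor of the early neural crest, had 44.4 in parental cells and 685, 194, 120.1 and 302 in the stable lines (-2.57, SE 0.75, adjusted p = 0.136 in limma).

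The remaining lists held few or no calls by each gene's brightest probe set, the one counted in all lists. Rbbp7, which is X-linked, was the 1 member called among 29 measured of Polycomb, H3K9 and DNA methylation machinery. It was called higher, where 0.653% of all genes were. In limma 0 members passed among 38 measured subunits of oxidative phosphorylation, 35 cytosolic ribosomal proteins, 37 genes of cell cycle and DNA replication, 15 p53 targets, 21 genes of xenobiotic resistance, NRF2 and glutathione, 16 of the Hippo pathway, 22 of Wnt, 17 of Notch and 15 of FGF signalling, 17 of axon guidance, 17 of microRNA processing, 16 imprinted genes, 10 neural progenitor genes, 9 mesenchymal-state genes, 7 Hox genes, 11 Id proteins and partners, 2 caveolae genes and 25 sympathoadrenal genes. At an unadjusted p under 0.05 the largest shares of these lists were 2 of 2 caveolae genes, 3 of 10 neural progenitor genes, 7 of 25 sympathoadrenal genes and 3 of 11 Id proteins and partners, and the smallest were 0 of 7 Hox genes, 2 of 38 oxidative phosphorylation subunits and 2 of 35 ribosomal proteins, where 16.7% of all probe sets had such a p. For oxidative phosphorylation 8 members lay above and 5 below every stable line (21.1% and 13.2%), and for ribosomal proteins 4 and 6 (11.4% and 17.1%), fewer on either side than over all genes. The largest change among oxidative phosphorylation genes was in Ndufa1, an X-linked subunit of complex I, with 19080 in parental cells and 14755, 12697, 13899 and 13849 in the stable lines (0.47, SE 0.09, adjusted p = 0.0554 in limma). Of the 32 lists 12 had a median that kept its sign under every alternative run, and 20 had a median that turned.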

How the data were processed

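Each of the 5 Neuro2A lines gave total RNA for 1 Affymetrix 3' expression array. Per the submitters' processing notes the authors made the values with MAS5 (version: not given in the sources used here), and the deposited table holds a linear intensity per probe set with no detection calls and a trimmed mean of 500.0 on every array. Probe sets were named from the platform annotation, 34945 with 1 gene symbol, 932 with several and 9160 with none. Chromosomes came from the gene table of assembly GRCm38.p6.

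Intensities were taken to log2 with no pseudocount, control probe sets were left out, and those at or above the median mean log2 signal were tested with limma 3.58.1 in R 4.3.3 (lmFit, and eBayes with an intensity trend), with Benjamini-Hochberg adjustment over all 22519. For genes, the probe set with the highest mean signal was used. Genes were named if they were Kdm7a, Phf2 or Phf8, among the 15 with the largest gap to the nearest stable line in each direction past the threshold, or leading members of a list, and others are said to be chosen after their values were seen. The members and the 32 gene lists were chosen with earlier results of these data known. Signals of different probe sets are not compared. Alternatives were other normalizations, an offset of 32, other filters and eBayes settings, and each stable line left out. The script was tested on simulated data. No source used here says if the lines were cultured side by side. Tests of the KDM7 knock down lines against the vector controls were not analysed here.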

Additional observations from a re-analysis of the deposited data

Results flagged for a closer look

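In 7 of 75 probe sets of named genes, and in 1 chromosome median, a single stable line stood apart from the other 3 by Dixon's criterion, which chance meets in about 1 of 20 groups of samples. Cavin2 had 3463, Wwtr1 had 439 and Hk2 had 4058 in the EGFP KD line, the highest stable value of each. Chromosome 3 had a median difference from the parental array of 0.08 against EGFP KD and -0.21 to -0.23 against the other lines. Sgsm1 had 44.5 and Mfng, a Notch glycosyltransferase, had 20.1 in the empty vector line, the lowest stable value of each. Cbs had 53.2 and Dcc, a netrin receptor, had 7.84 in the KDM7 KD2 line, the lowest stable value of each. No cause was tested.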

How the results depend on the processing

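Counts past the limma threshold, higher and lower in parental cells, were 117 and 145. They were 79 and 73 with quantile normalization, 328 and 102 with median centring, 102 and 83 with cyclic loess, 97 and 53 with an offset of 32, 82 and 34 with both quantile normalization and the offset, 25 and 24 without a brightness filter, 22 and 12 when only probe sets from the 70th percentile up were tested, 169 and 314 with the filter on stable lines alone, 5 and 23 without the intensity trend, 61 and 60 with 1 probe set per gene tested and adjusted alone, and 359 and 470 at an adjusted p under 0.10. Leaving out each stable line gave 31 to 278 higher and 29 to 325 lower. Against the empty vector and EGFP KD lines alone 18 and 9 passed, and against the KDM7 knock down lines alone 800 and 880. At least 2-fold above and below every line were 241 and 238 with median centring, 1035 and 2555 without a filter, 53 and 34 at the 70th percentile, 72 and 126 with 1 probe set per gene, 334 and 754 against the knock down lines, and 156 to 191 and 402 to 513 with a stable line left out. Those below were 89 with the offset and 70 with quantile normalization and the offset, and those above were 256 against the vector controls. Above and below every line were 9147 and 3622 with median centring, 8890 and 13044 without a filter, and 2670 and 3376 with 1 probe set per gene, and 4176 lay below at the 70th percentile.

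X-linked genes called higher numbered 82 with median centring, 8 without a filter, 8 at the 70th percentile, 2 without the trend, 93 at 0.10, 8 to 73 with a line left out, 3 against the vector controls and 121 against the knock down lines. Their median was 0.77 with median centring, 0.63 with cyclic loess, 0.61 at the 70th percentile, 0.54 with the offset and 0.54 with quantile normalization and the offset. The sign of Kdm7a turned against the vector controls alone (-0.58, -0.19 and -0.39). Pdgfra turned with median centring (0.05) and with EGFP KD or KDM7 KD1 left out (0.00 and 0.03; -0.36 to 0.03 over the lines left out). Esam turned with quantile normalization (0.15), median centring (0.19), cyclic loess (0.15), the vector controls alone (0.06), quantile normalization and the offset (0.09) and the empty vector or KDM7 KD1 line left out (0.12 each; -0.17 to 0.12 over the lines left out). Of 75 probe sets of named genes, direction and side of the threshold held for 70 with quantile normalization, 63 with the offset, 47 without a filter and 53 to 67 with a line left out. The causes were not tested. No paired analysis was possible because the parental line has 1 array and the groups share fewer than 2 replicate numbers. With 1 parental array and no detection calls, signals under 40.5 limit the size of 59 of 145 lower calls.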
